A study of Mus musculus with 4 samples.

Results

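The proteasome is the protease complex that breaks down proteins tagged with ubiquitin. Its genes were followed here in mouse liver through the 35 genes whose names on the array begin with Psma, Psmb, Psmc or Psmd followed by a number, leaving out the immunoproteasome genes Psmb8, Psmb9 and Psmb10. These genes were represented by 50 of the 41174 gene probes, and by 35 of the 27962 gene names. The rule uses names and no measured value, but it was set with earlier results of these data known. Of them, 15 encode the core particle. The other 20 are counted with the regulatory particle, and 3 of these, Psmd5, Psmd9 and Psmd10, are chaperones of its assembly. For 44 of the 50 probes the accession is listed in RefSeq, each time under the same symbol, and the other 6 are cDNA clones.

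The groups were liver of food-deprived mothers, liver of control mothers, liver of fetuses labelled food-deprived and liver of control fetuses, all of strain C57BL/6J. Per the labels the animals were housed with free access to chow. How long food was withheld, the gestational stage and the sex of the animals are not given there. RNA of 5 to 10 animals was pooled per condition, and food-deprived and control RNA were hybridised together on 2 arrays per comparison, with food-deprived RNA in Cy5 on array 1 and in Cy3 on array 2. The labels number the arrays of a comparison as pooled samples 1 and 2, and this number goes with the dye orientation, so whether the 2 arrays hold the same pools or different ones cannot be told apart. They were treated as the same pools, each condition as 1 replicate, and for that reason no significance test was made and no p-value is given. The spread between the 2 arrays covers labelling and hybridisation, and may or may not include a difference between pools.

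The core particle is a barrel of stacked rings, in which the outer rings of alpha subunits form the gate and the inner rings of beta subunits hold the proteolytic sites. The regulatory particle sits on the barrel ends. Its base holds a ring of ATPases, the Psmc subunits, which unfold substrates, and its lid holds a deubiquitinating enzyme. In liver the proteasome works beside autophagy in the turnover of proteins during fasting, and the transcription factor Nfe2l1 is known to raise the subunit genes together when proteasome capacity falls short.

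Between 53.2% and 69.7% of gene spots per array and dye were well above background, and none was saturated. Of the hepatocyte markers, Apoa1, Ttr and Afp were measured in both mother and fetus and Tat in the fetus, while Alb and Serpina1a were not found under these names. In control mothers the 7 erythroid markers were all lower than in control fetuses, with a median log2 difference of -4.26. Of the 50 probes, the Psmd11 clone probe alone was not well above background on any array. Psmb1 and Psmb6 have no maternal mean, because the scanner software marked their spot on maternal array 2 as an outlier. On maternal array 1 Psmb1 had a log2 ratio of 0.00 and Psmb6 a log2 ratio of -0.07.

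In mothers, food deprivation went with higher levels of most proteasome transcripts, and the rise was largest for Psmd4 and Psmd9. Each value is the log2 of food-deprived over control signal. Of 33 measured genes 30 lay above 0, 28 of them on both arrays, and the median was 0.39 (0.41 on array 1 and 0.38 on array 2), against -0.01 over all 15786 measured genes. Of those 15786 genes 7547 lay above 0, 5157 of them on both arrays. The median SD between the arrays was 0.12 for members and 0.10 for all genes, and in fetuses 0.12 and 0.09. A gene was counted as changed where its log2 ratio was at least 0.32 in size, with the same sign, on both arrays. By this lower rule 15 genes rose, or 45.5% of those measured, where 6.97% of all genes rose. Psma8 fell by it, where 9.83% of all genes fell. A stricter rule asked for a 2-fold mean and 1.5-fold on both arrays, which Psmd4 and Psmd9 passed in the higher direction, as 1.57% of all genes did. No member passed either rule with array 2 left unturned, which would mark a difference that follows the dye, as 0.203% of all genes did by the lower rule in mothers and 0.21% in fetuses. From the scanner software's own ratios 18 of the 33 genes rose by the lower rule, where 15.2% of all genes did. Without loess normalisation, with array medians centred alone, no member passed the lower rule, and 0.494% of all genes passed it in the higher direction. Under that setting Psmd4 gave 2.58 on array 1 and -0.30 on array 2, with a mean of 1.14.

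**Figure D1:**
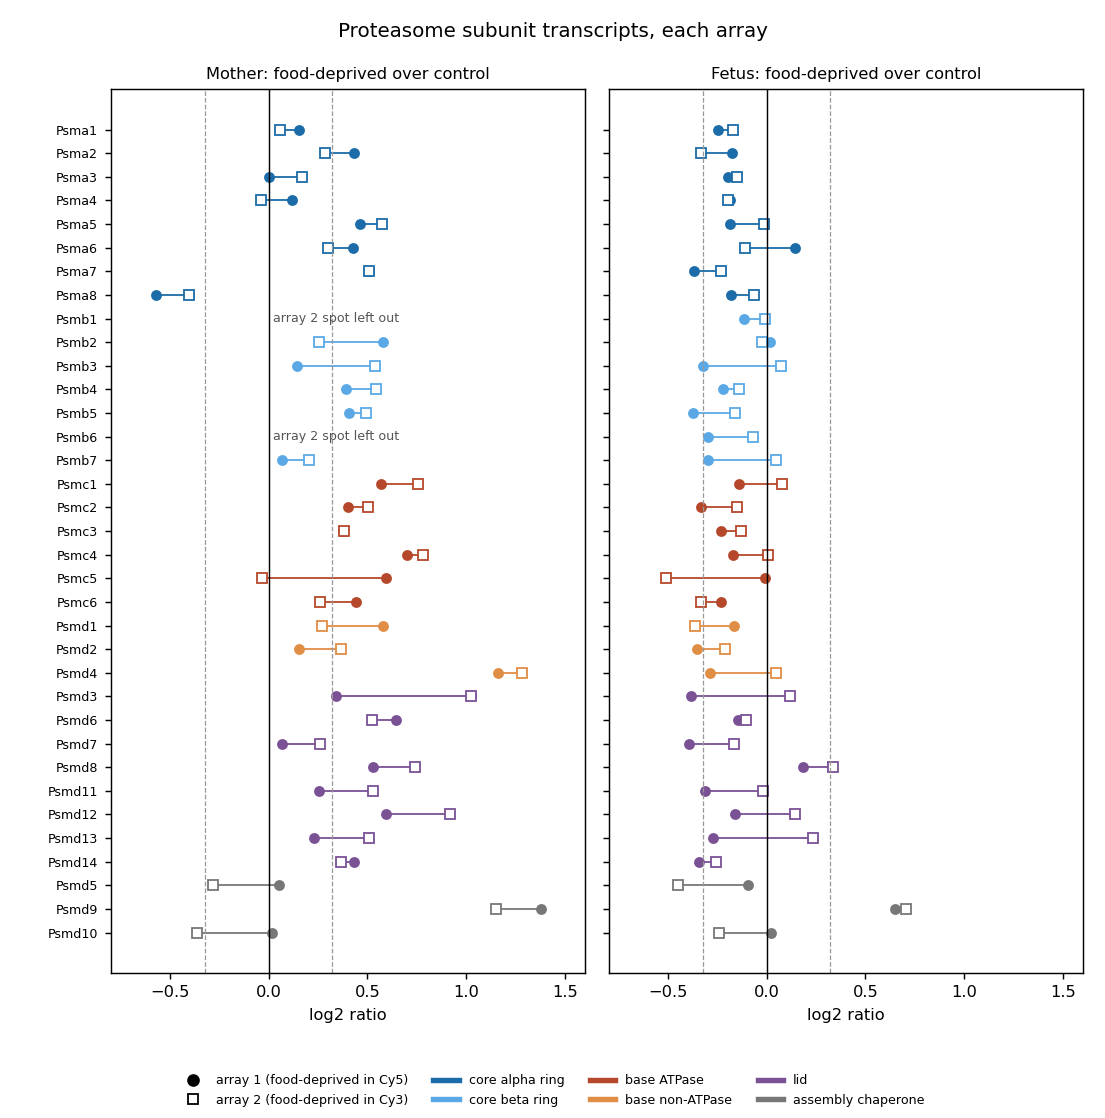
Log2 ratios of food-deprived over control RNA for the 35 genes, in mothers on the left and fetuses on the right, with array 1 as filled circles, array 2 as open squares and colours for the place in the complex. Dashed lines mark 0.32 and -0.32, and 15 maternal ratios lie beyond the upper line on both arrays, against Psmd9 alone in the fetus.

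Psmd4 is a subunit of the base that binds ubiquitin chains. On the log2 scale of single channels its level was 12.96 and 13.16 in food-deprived mothers, on arrays 1 and 2, against 11.80 and 11.88 in control mothers. Both food-deprived levels lay above both control levels. The mean ratio was 2.33-fold. In food-deprived fetuses its level was 11.66 and 11.68, against 11.94 and 11.63 in control fetuses, and the readings overlapped.

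Psmd9 is a chaperone that helps assemble the ATPase ring and is not part of the finished complex. Its level was 10.71 and 10.69 in food-deprived mothers, against 9.33 and 9.54 in control mothers, a mean ratio of 2.40-fold. In fetuses it was 10.54 and 10.67 with food deprivation, against 9.89 and 9.97 in controls. The 2 array readings per condition did not overlap in either animal, and the share of all genes for which this holds was not counted. They are treated as readings of 1 pool, so they do not show the spread between animals. The Psmd9 ratio was 1.38 and 1.15 in mothers and 0.65 and 0.71 in fetuses, and its second probe gave means of 1.06 in mothers and 0.74 in fetuses. The other chaperones of the base did not pass either rule. Psmd5 had maternal ratios of 0.05 and -0.28, and Psmd10, also known as gankyrin, 0.02 and -0.36.

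The probes that carry these values for Psmd4 and Psmd9 are printed because a second Psmd4 probe gave another value. The Psmd4 probe listed against its RefSeq transcript lies at chr3:94907958-94908556 on the minus strand of mm7, the build in the file headers. Its 60 bases span 599 bases of genome, so it crosses an exon junction. Of its forward reading frames 1 holds no stop codon. The second probe was designed on an mRNA clone named pUb-R3 and lies at chr3:94907235-94907294 on the same strand. The files do not list it against that RefSeq transcript, and its exon was not looked up here. Only its first 30 bases are shown. The Psmd9 probe lies at chr5:122475368-122477508 on the plus strand and also crosses a junction.
Psmd4, RefSeq probe: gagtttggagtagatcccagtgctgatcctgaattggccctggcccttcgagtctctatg
Psmd4, clone probe, first 30 bases: aggtgtttttatttccgttgtcctggaatt
Psmd9: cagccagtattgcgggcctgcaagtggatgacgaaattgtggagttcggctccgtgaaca

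The Psmd4 RefSeq probe gave 1.16 and 1.28 in mothers, against 0.28 and 0.18 for the clone probe. The clone probe was dim. Its background-subtracted signal on maternal array 1 was 109 in the food-deprived channel and 25.5 in the control channel, and on maternal array 2 it was 36.5 and 52.5, before any dye normalisation. An offset of 50 was added to every signal before the ratio was taken, which is of the size of these signals. The scanner software's own ratios, which carry no such offset, gave 0.98 and 1.27 for the clone probe and 1.18 and 1.33 for the RefSeq probe. The distance between the probe means was thus 1.22 against 0.23 in the values used throughout, and 1.26 against 1.13 in the software's ratios. In fetuses both probes stayed near 0, at -0.29 and 0.05 for the RefSeq probe and -0.02 and 0.07 for the clone probe. Transcripts of the mouse gene are known to be spliced in several ways, but which forms each probe detects was not tested.

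**Figure D2:**
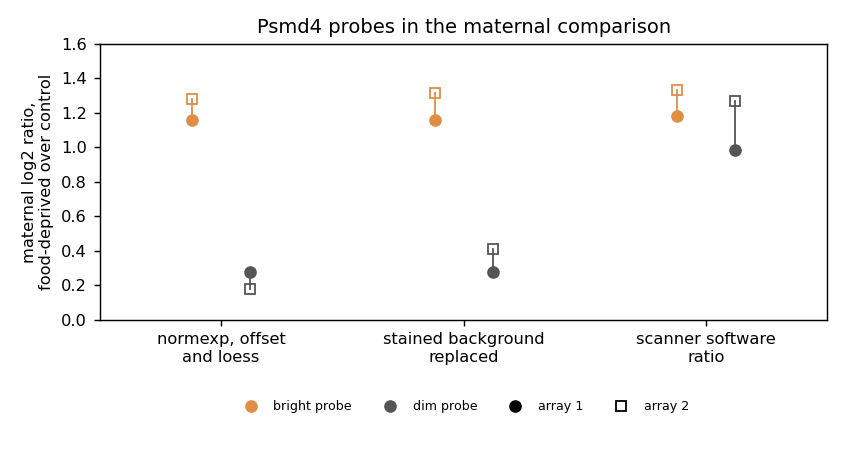
Maternal log2 ratio of food-deprived over control RNA for the bright RefSeq probe and the dim clone probe of Psmd4, with array 1 as filled circles and array 2 as open squares, under 3 ways of taking the ratio. The clone probe averages 0.23, 0.35 and 1.13 from left to right, while the RefSeq probe averages 1.22, 1.24 and 1.26.

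The ATPases of the base were higher as a group in food-deprived mothers. Their median log2 ratio was 0.42 and 4 of 6 rose, where 6.97% of all genes did. Psmc4 gave 0.70 and 0.78, Psmc1 0.57 and 0.76, Psmc2 0.40 and 0.50, and Psmc3 0.38 and 0.38. Psmc6 gave 0.44 and 0.26 by its brightest probe, and 0.78 and 0.43 by its dimmer second probe. Psmc5 gave 0.59 and -0.03, the widest gap between arrays among the ATPases. The scaffold subunits of the base, Psmd1 and Psmd2, had means of 0.43 and 0.26 and did not pass the rule.

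In the lid 5 of 8 genes rose, where 6.97% of all genes did, and the median was 0.49. Psmd12, a structural lid subunit, was at 13.77 and 13.85 in food-deprived mothers, against 13.18 and 12.94 in control mothers, so the levels did not overlap. Its ratios were 0.59 and 0.92. Psmd3, another structural subunit, gave 0.34 and 1.02, which differ by more than those of any other lid subunit. Psmd8 gave 0.53 and 0.74, and Psmd6 gave 0.64 and 0.52. Psmd14, the deubiquitinating enzyme of the lid, gave 0.43 and 0.37. The lowest lid mean was 0.16, for Psmd7, the partner of Psmd14, by its brightest probe. The other probes of Psmd7 gave means of 0.43 and 0.24. The 3 probes of Psmd12 gave maternal means between 0.21 and 0.75, and the dimmest gave the lowest.

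Core and regulatory particle are set side by side next, and the difference between them was not tested. Of 13 measured core genes 4 rose and 1 fell, with a median of 0.36 (0.39 on array 1 and 0.29 on array 2). Of all genes 6.97% rose and 9.83% fell. In the regulatory particle 11 of 20 rose, none fell, and the median was 0.41 (0.44 and 0.51). The ranges overlapped, from -0.49 to 0.52 in the core and from -0.17 to 1.27 in the regulatory particle. Without the 3 chaperones 10 of 17 rose, with a median of 0.43. Of the 20 genes 8 lay above the highest core gene, Psmd9 among them.

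In the alpha rings the median was 0.23 and 2 of 8 genes rose, where 6.97% of all genes did. Psma5 was at 13.83 and 13.75 in food-deprived mothers, against 13.37 and 13.18 in control mothers, with ratios of 0.46 and 0.57. Psma7 gave 0.51 on both arrays. The lowest core subunits apart from Psma8 were Psma4, at 0.12 and -0.04, and Psma3, at 0.00 and 0.17.

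Psma8, an alpha subunit known from the testis, was the gene that fell. Its level was 7.70 and 7.85 in food-deprived mothers, against 8.27 and 8.25 in control mothers. It was among the dimmest probes here, and its ratio of -0.57 and -0.40 became -1.07 and -0.85 in the scanner software's values.

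In the beta rings the median was 0.42 and, where 6.97% of all genes rose, 2 of 5 measured genes did. They were Psmb5, which carries the chymotrypsin-like site, at 0.41 and 0.49, and the structural subunit Psmb4, at 0.39 and 0.54. Psmb7, which carries the trypsin-like site, gave 0.07 and 0.20.

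The constitutive catalytic subunits have counterparts that replace them in the immunoproteasome, a form rich in immune cells and induced by interferon. All 3 counterparts fell in food-deprived mothers by the 2-fold rule, as 1.92% of all genes did. Psmb10, which replaces Psmb7, gave -1.57 and -1.57. Psmb9, which replaces Psmb6, gave -1.15 and -1.19, and Psmb8, which replaces Psmb5, gave -1.07 and -1.08. With median centring none of the 3 passed either rule, with Psmb8 at 0.16 and -2.36, Psmb9 at 0.01 and -2.41, and Psmb10 at -0.31 and -2.97. In fetuses none of the 3 passed either rule, with means between -0.28 and -0.08. By the lower rule 9.83% of all genes fell in mothers and 2.41% in fetuses. Of 7 measured macrophage markers in mothers 5 fell, with a median of -0.57 and a range from -1.13 to -0.35, and in fetuses the median was 0.03. Of the 3 stellate cell markers 2, Col1a1 and Col3a1, fell in mothers and in fetuses, with list medians of -0.70 in mothers and -0.42 in fetuses. The part of these markers in the immunoproteasome result was not tested, and in RNA of whole liver fewer cells of a type and less RNA per cell cannot be told apart.

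**Figure D3:**
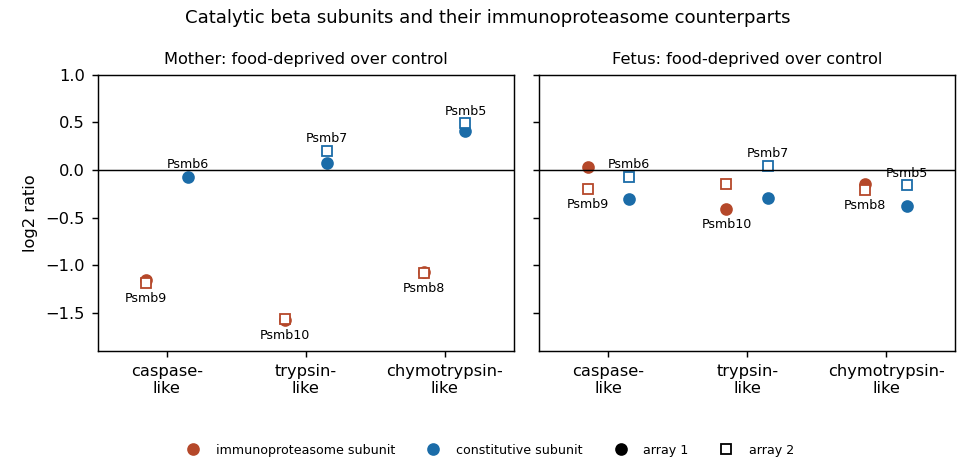
Log2 ratios of food-deprived over control RNA for the immunoproteasome subunits (red) and the constitutive subunits they replace (blue), in mothers on the left and fetuses on the right, with array 1 as filled circles and array 2 as open squares. The 3 immunoproteasome genes lie below -1 in mothers, and Psmb6 has 1 maternal array.

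In fetuses the subunit genes did not rise. The median over 35 genes was -0.16 (-0.20 on array 1 and -0.11 on array 2), against 0.00 over all genes, and 32 lay below 0, 22 of them on both arrays. Of all 17602 measured genes 8572 lay below 0, 5438 of them on both arrays. The direction of the members depends on the normalisation. Median centring without loess gave 0.07 for the core and 0.07 for the regulatory particle, where the median of all genes moved to 0.10. The 7 erythroid markers, fetal liver being a site of red cell formation, had a median of -0.22 in the same comparison with all 7 below 0 and none past the lower rule, and their part in the subunit values was not tested. Psmd9 passed the lower rule, or 2.86% of the members, where 3.94% of all genes rose. No member fell by it, where 2.41% of all genes fell, and none passed the 2-fold rule, where 0.756% of all genes did.

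The core median was -0.17 and the regulatory median -0.15 in fetuses, a gap smaller than that between the medians of arrays 1 and 2. Psmd8 gave 0.18 and 0.33 and was the highest after Psmd9. The next highest, Psma6, Psmb2 and Psmd12, had means within 0.02 of 0. The lowest means were those of Psmd14, at -0.34 and -0.26, and Psma7, at -0.37 and -0.23, followed by Psmd2, Psmc6 and Psmd7, each at -0.28. The Psmd12 probes disagreed in sign, with fetal means between -0.34 and 0.03.

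The maternal response minus the fetal response, taken between arrays of equal dye orientation, was above 0 for 31 of 33 genes on both orientations. Of all 15247 genes 5333 were above 0 on both. The median of the members was 0.56 (0.61 and 0.54), against -0.02 over all genes. By the lower rule 23 genes were higher, or 69.7%, where 7.46% of all genes were, and Psma8 was lower, where 11.5% of all genes were. Psmd4 alone passed the 2-fold rule, where 3.04% of all genes did in either direction. As a mean over its 2 probes Psmd4 was at 0.77, and at 0.73 in the maternal response, so both 2-fold calls ended. From the scanner software's ratios 25 of the 33 genes were higher by the lower rule, where 16.2% of all genes were. With median centring no member passed the lower rule, and the medians were 0.07 in the core and 0.35 in the regulatory particle, where that of all genes was -0.11. The median SD between the orientations was 0.08, both for members and for all genes.

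Core and regulatory particle overlapped in this difference, and the distance between them was not tested. Where 7.46% of all genes were higher, 17 of 20 genes were in the regulatory particle, with a median of 0.61. In the core it was 6 of 13, with a median of 0.42. Without the assembly chaperones it was 16 of 17, with a median of 0.69. All 6 ATPases and all 3 base subunits without ATPase activity were among them, and so were 7 of 8 lid genes, while the alpha rings held 3 of 8 and the beta rings 3 of 5. The largest differences were 1.34 for Psmd4, 0.82 for Psmc4, 0.82 for Psmd3 and 0.81 for Psma7. The smallest were -0.36 for Psma8, -0.06 for Psmd10, 0.16 for Psmd5 and 0.23 for Psma4. For Psmd9, which was higher in both animals, it was 0.59.

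**Figure D4:**
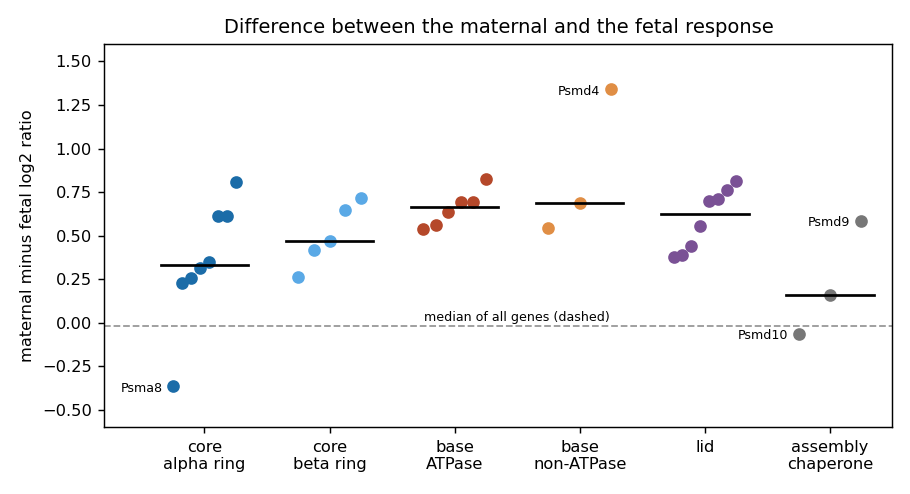
Maternal minus fetal log2 ratio for each measured gene (points) by place in the complex, with the median of each group as a black bar and the median of all genes as a dashed line. The ATPases lie between 0.54 and 0.82, Psmd4 stands at 1.34, and Psma8 and Psmd10 lie below 0.

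In control animals, levels of the same probe were compared between mothers and fetuses. Of 33 genes 4 were higher in control mothers, or 12.1%, where 24.0% of all genes were, and 6 were lower, where 23.8% of all genes were. None passed the 2-fold rule, where 19.6% of all genes did. The erythroid markers, with their median of -4.26, differ most between these livers among the marker lists, and their part in the subunit differences was not tested. Higher in control mothers were Psmd8 (0.56), Psma4 (0.53), Psma8 (0.43) and Psmb7 (0.36), as log2 differences. Lower were Psma2 (-0.58), Psma5 (-0.55), Psmd9 (-0.49), Psmc6 (-0.45), Psma1 (-0.43) and Psmd14 (-0.41). The median difference was 0.36 in the core and 0.15 in the regulatory particle, and without array 2 the core median became -0.06. Psma6 had a mean of 0.51 but gave 0.23 on array 1 and 0.79 on array 2. Psmb2 had the highest mean, 1.23, from -0.06 on array 1 and 2.53 on array 2. The Psmb2 probe read 7.37 and 7.39 in the food-deprived and control channels of fetal array 2, against 9.78 and 9.76 on fetal array 1, so 1 spot decides that value.

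Food deprivation and the change of level between animals can be set side by side for single genes. Psmd9, Psma5 and Psmd14 were lower in control mothers than in control fetuses and were higher with food deprivation in mothers. Both comparisons use the same maternal control channel, so a low reading there would give both. Psma1, Psma2 and Psmc6 were also lower in control mothers, but by their brightest probe did not pass the rule with food deprivation. Psmd8 was higher in control mothers and rose as well. In food-deprived mothers Psmd9 reached 10.71 and 10.69, against 9.89 and 9.97 in control fetuses. Psma5 reached 13.83 and 13.75 there, against 13.91 and 13.74 in control fetuses. Psmd14 reached 12.14 and 12.04, against 12.05 and 12.14 in control fetuses.

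Among genes that work with the proteasome, 34 were measured in mothers, of which 5 rose and 5 fell, where 6.97% of all genes rose and 9.83% fell. None of these 10 passed the lower rule with median centring. Adrm1, another ubiquitin receptor of the base, rose by 0.67 and 0.56. AI314180, now named Ecpas, which tethers core and regulatory particles, rose by 0.48 and 0.59. The shuttle protease Ddi2, which cleaves Nfe2l1 into its active form, rose by 0.39 and 0.36. Nsfl1c, a cofactor of the segregase Vcp, rose by 0.44 and 0.36, and Vcp itself gave 0.32 and 0.19. The ubiquitin ligase Fbxo32, known from muscle wasting, rose by 0.43 and 0.33, and by a mean of 1.14 in the scanner software's ratios.

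Those that fell in mothers, beside the 3 immunoproteasome genes, were Psme2b-ps, a copy of the gene for an activator subunit induced by interferon, at -0.89 and -1.20, and Nfe2l2, a transcription factor of the oxidative stress response, at -0.53 and -0.38. Whether the Psme2b-ps probe also binds transcripts of the parent gene was not tested. Nfe2l1 gave -0.05 and 0.15. Pomp, the chaperone that completes the core particle, gave -0.39 and -0.30 in mothers and -0.34 and -0.27 in fetuses. In fetuses 1 of 35 such genes rose, Ddi2 at 0.66 and 0.64, and none fell, where 3.94% of all genes rose and 2.41% fell. With median centring Ddi2 gave 1.56 and 0.14 in fetuses and did not pass.

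Another large complex, the cytosolic chaperonin that folds actin and tubulin, gave values of like size. In mothers 4 of its 8 genes rose, where 6.97% of all genes did. Its median was 0.34 in mothers and -0.19 in fetuses. The median of its maternal minus fetal difference was 0.56, with all 7 measured genes above 0 on both orientations. By the lower rule 4 of these 7 were higher, where 7.46% of all genes were. With median centring none of its genes passed the lower rule. Its largest maternal ratios were those of Tcp1, at 0.89 and 0.73, and Cct2, at 0.83 and 0.62. Of its 7 genes measured in the control animals 4 were lower in control mothers than in control fetuses, where 23.8% of all genes were. The median was -0.59, where the proteasome median was 0.16.

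Promoters were searched for 2 motifs in windows of 300 bases, from 250 before to 50 after the gene start, in RefSeq sequence of build GRCm38.p6. TGACNNNGC, the core of the antioxidant response element to which Nfe2l1 and Nfe2l2 bind, was found on either strand in 5 of 28 members with a window (17.9%), and in 14.0% of 27025 genes. CCAAT was found in 39.3% of members and in 41.1% of genes. It was in 6 of 11 core genes and in 5 of 17 regulatory genes. No member had matches of both motifs. The matches to the first motif are printed in the gene's direction with the motif in capitals and up to 15 bases on each side. They lie at chr14:54618019-54618057 (minus strand) for Psmb5, chr11:70525333-70525371 (plus) for Psmb6, chr14:45329582-45329620 (plus) for Psmc6, chr11:107479278-107479304 (plus) for Psmd12 and chr5:123228144-123228182 (plus) for Psmd9.
Psmb5: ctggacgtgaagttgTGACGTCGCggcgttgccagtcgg
Psmb6: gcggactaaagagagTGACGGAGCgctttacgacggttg
Psmc6: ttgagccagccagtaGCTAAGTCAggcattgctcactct
Psmd12: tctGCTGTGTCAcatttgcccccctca
Psmd9: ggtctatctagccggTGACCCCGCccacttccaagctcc

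Of these 5 genes, Psmb5, Psmd12 and Psmd9 rose in food-deprived mothers and Psmb6 has 1 array. Among all 33 members measured there 15 rose, or 45.5%, where 6.97% of all genes did. Psmc6 did not pass the rule by its brightest probe, but its second probe, at 0.78 and 0.43, did. Psmd4, with the second largest maternal ratio, has a window without this motif and with CCAAT. A match in a window is a description of its letters and says nothing of binding in these livers.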

How the data were processed

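Liver RNA of food-deprived and control mothers and fetuses was compared with 4 two-colour arrays from 1 slide. The deposited scanner files give intensity values of every spot and of its local background. They also give a log10 ratio of red over green after the software's own background and dye correction, per the file headers. Those headers give version 9.5.1.1 of Agilent Feature Extraction, whereas version 9.5.3.1 stands in the submitters' processing notes. The series table deposited with them holds signed values treated as a score. Their size matched red over green processed signal with a Pearson correlation of at least 0.9999. Column medians were -0.92 and -0.88 where food-deprived RNA was in Cy5, and 0.94 and 0.88 where it was in Cy3. The direction follows from that match, and the meaning of the sign is unknown.

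In R 4.3.3 with limma 3.58.1, intensities were corrected by normexp with an offset of 50. Loess normalisation gave control spots a weight of 0, after which ratios were set as food-deprived over control. Outlier spots were left out (215 to 257 gene spots per array). A gene was measured where either condition's channel was well above background on both arrays, and its brightest measured probe stood for it. Levels come from single channels after loess and Aquantile. The offset shrinks ratios of dim spots. The number of arrays limits the precision. The normalisation and call steps were tested on simulated data.

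Named are members past a rule, the 5 highest and 5 lowest per comparison, the 4 largest and 4 smallest differences, all Psmd4 probes, members whose probes differ in sign, and up to 8 neighbouring genes past a rule per comparison. Further genes named beside them were chosen after their values were seen. The members and lists were chosen with earlier results of these data known. Alternatives covered the normalisation, the source of the ratio, the background, the filter, the probes, the arrays and the gene list.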

Additional observations from a re-analysis of the deposited data

Results flagged for a closer look

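For 16 of 33 genes (48.5%) both maternal arrays lay above 0 and both fetal arrays below 0, where 7.29% of 15264 genes did so. The difference between mother and fetus was not tested, and the fetal sign depends on loess normalisation. The maternal minus fetal log2 differences of these genes in the core particle were 0.31 for Psma1, 0.61 for Psma2, 0.26 for Psma3, 0.61 for Psma5, 0.81 for Psma7, 0.65 for Psmb4 and 0.72 for Psmb5. Among ATPases they were 0.69 for Psmc2, 0.56 for Psmc3 and 0.63 for Psmc6. Among the other regulatory genes they were 0.69 for Psmd1, 0.54 for Psmd2, 0.71 for Psmd6, 0.44 for Psmd7, 0.55 for Psmd11 and 0.70 for Psmd14. The medians of the core (0.42) and of the regulatory particle (0.61) showed the same opposite signs. The pattern was not particular to the proteasome. In the chaperonin, Cct3, Cct4, Cct7, Cct8 and Tcp1 also lay above 0 on both maternal arrays and below 0 on both fetal arrays. Cct2 and Cct6a had fetal arrays of opposite sign, and Cct5 was not measured in fetuses. The chaperonin median of the difference was 0.56, as was that of all members.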

How the results depend on the processing

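No paired analysis was possible because the results come from no test, and the number of a pooled sample goes with the dye orientation, so pool and dye cannot be told apart. Of 132 values of medians and counts under the alternatives, 106 were labelled the same, 25 moved and 1 reversed. A median was the same within the spread between its arrays, and a count by its ratio to the main count. A median could be labelled reversed only where its main value was at least 0.32 in size. The fetal core and regulatory medians, at -0.17 and -0.15, changed sign with median centring and are labelled moved. With median centring in place of loess, the core and regulatory medians were 0.2693 and 0.39 in mothers, 0.0746 and 0.0708 in fetuses, and 0.0688 and 0.3479 for the difference, and 0 members were higher or lower in any of these. The share of calls that were higher over all genes was then 28.26% in mothers, 73.71% in fetuses and 13.64% for the difference, against 41.52%, 62.04% and 39.36%. Scanner software ratios gave regulatory medians of 0.4704 in mothers and 0.684 for the difference and a core difference of 0.49. The series table gave 0.47 in mothers, and 0.4924 for the core difference. Replacing stained background gave a core difference of 0.4638. Without the assembly chaperones and Psma8, 0 members were higher in fetuses, 0 were lower in mothers and in the difference, the regulatory difference was 0.6882 and the control core median 0.1559. With either array left out, the core median ranged from -0.1966 to -0.1087 in fetuses, the regulatory median from 0.438 to 0.5071 in mothers, the core difference from 0.4117 to 0.4686 and the regulatory difference from 0.5862 to 0.6909. The control core median was 0.1916 without array 1 and reversed to -0.0648 without array 2. Psmd4 in mothers was 0.73 as a mean over its probes, which ends its 2-fold call. The other alternatives were no filter, a filter on both conditions, the mean over probes and quantile-normalised channels. None of them gave a median or count labelled moved or reversed. With the mean over probes, the members lower in control mothers went from 6 to 4 and were labelled the same.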
